A study of Mus musculus with 6 samples.

Results

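Cultures of mouse neural stem and progenitor cells, which divide and can give rise to neurons and glia, were profiled by RNA sequencing after 48 h. All 3 groups grew in N2 medium with the mitogens EGF and bFGF. One group received an agent labelled PQ, another an agent labelled NAC, and the control group received neither. The series gives a shift of the redox potential inside the cells as the aim of the treatments. The labels spell out neither agent and give no dose, strain, age or vehicle. Nothing in them tells whether a group's 2 libraries are separate cultures, so the p-values reflect spread between the libraries at hand, and that spread may be technical. Here the 4 treated libraries (2 PQ and 2 NAC) were set against the 2 control libraries, which together are all 6 libraries of the series. The question was what sets untreated cultures apart from both treatments.

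Levels are given in CPM, the estimated counts of a gene scaled to a common library total. The libraries held between 9680436 and 10698241 estimated counts. Of 17254 gene identifiers, 12813 had enough counts to be tested. The markers fitted the label: the summed level of 20 neural stem cell and radial glia genes was 7661 and 7853 CPM in control, 8381 and 8463 in PQ and 6425 and 6440 in NAC. Gene levels below also carry TMM scaling, edgeR's correction of the library totals, and differences are log2 fold changes ± SE against control unless stated. The PQ and NAC differences rest on the same 2 control libraries, so they are given side by side and their likeness is not read as support. In 1462 genes (11.4% of those tested) both control libraries lay below all 4 treated libraries, and in 1362 genes (10.6%) both lay above. Such an order is common without any change. In simulated counts 13.06% of unchanged genes were separated, counting both directions, beside 2824 of the 12813 tested genes here. The pooled test (the mean of PQ and NAC against control, edgeR's quasi-likelihood test, adjusted p under 0.05) called 749 genes higher in treated cultures (5.85%) and 815 lower (6.36%). Genes that met both conditions, 582 higher (4.54%) and 548 lower (4.28%), are called set apart. Because these genes were picked on control against treated, their values in that contrast describe them and support nothing further.

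How many genes passed the pooled test depended on the model. The main fit gave PQ and NAC a mean each. A fit with a single mean for the 4 treated libraries, in which the PQ to NAC difference counts as spread, called 23 genes, 16 higher and 7 lower, while 1348 genes had an unadjusted p under 0.05. The 7 lower genes were Chac1, Slc7a5, Mthfd2, Slc7a1, Shmt2, Aldh18a1 and Psat1, all of amino acid metabolism. Among the 16 higher genes were Gbp2, Gbp3, Gbp6, Gbp10, Tlr2, Cxcl5, Lcn2, Casp4 and Serpina3n. Within the main model, leaving out control replicate 2 gave 1012 calls and leaving out PQ replicate 2 gave 921, against 1564 with all libraries; the genes set apart then numbered 382 higher and 357 lower without PQ replicate 2. Of the 1564 calls 47.9% were higher in treated cultures, against 60.1% with scaling to library size alone and 63.0% in a fit to log2(FPKM + 1), which called 435 genes lower, 317 of them set apart.

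Some background helps in reading the genes. When amino acids run short or unfolded protein builds up in the endoplasmic reticulum, cells slow translation through phosphorylation of a shared initiation factor. The transcription factor ATF4 is then made in larger amounts and raises genes for the uptake, synthesis and tRNA charging of amino acids. Interferons act through STAT and IRF factors on a different set of genes, among them the guanylate-binding proteins, GTPases that attack vacuoles of intracellular pathogens. NF-kB drives chemokines and acute-phase genes, and neural stem cells and astrocytes can switch on both programmes.

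The genes set apart differed from control by modest amounts. The median pooled difference was 0.53 over the 582 higher genes and -0.46 over the 548 lower genes, against -0.01 over all tested genes. Both treatments reached at least 1.5-fold in 140 higher and 93 lower genes, and at least 2-fold in 46 higher and 25 lower genes. Just inside the threshold of the pooled test lay Amd1 (-0.28, adjusted p = 0.0499), and just outside it Slc12a9 (0.45, adjusted p = 0.0501). Median transcript length was 3239 bases for the higher and 2968 for the lower genes, against 2864 for all tested genes.

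The choice of genes did not ask for PQ and NAC to differ or to be alike, but it used the same libraries and the same estimate of spread, so the PQ against NAC counts among these genes are a description. That difference was called in 429 of the 1130 genes set apart (38.0%), against 3926 of all 12813 tested genes (30.6%). The share among the genes set apart depended on the libraries used. It fell to near the 30.6% of the main fit whichever PQ or NAC library was left out. It rose above 38.0% whichever control library was left out. The share over all tested genes was not set beside it in those fits, so the excess over all tested genes is given for the main fit only. Of the lower genes 210 of 548 differed between the agents, 134 with the higher level in PQ and 76 with the higher level in NAC. Of the higher genes 219 of 582 differed, 90 with the higher level in PQ and 129 with the higher level in NAC. A further 434 genes passed the pooled test although a treated library overlapped control. This condition favours genes moved by a single agent, and 399 of the 434 (91.9%) differed between PQ and NAC.

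A stricter view counts genes in which all 3 groups were apart. In 3433 genes no group overlapped another. Control lay between PQ and NAC in 1803 of them (52.5%), was highest in 784 (22.8%) and lowest in 846 (24.6%). Where control was lowest, NAC was the highest group in 464 genes and PQ in 382. Where control was highest, PQ was the lowest group in 383 genes and NAC in 401.

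**Figure D1:**
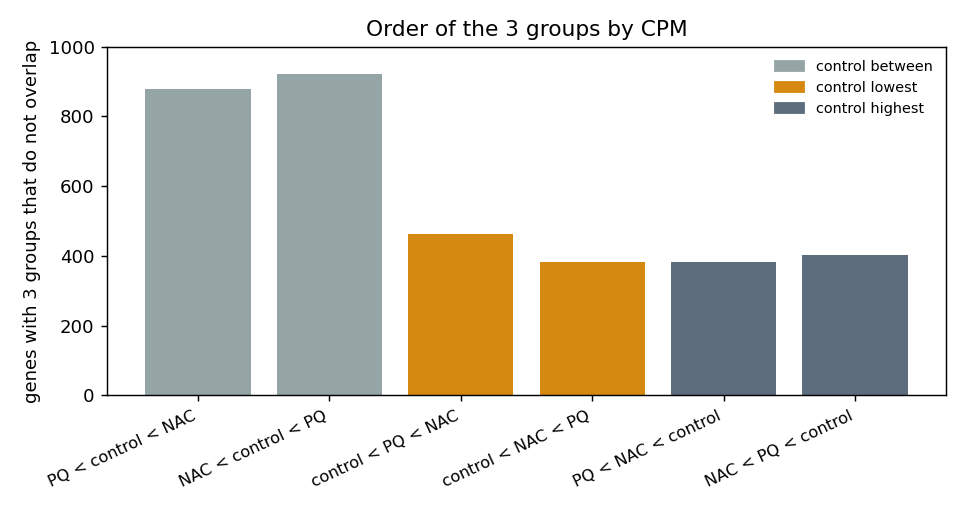
Number of genes (y axis) in each of the 6 possible orders of control, PQ and NAC by CPM, among the 3433 genes whose 3 groups did not overlap. Both orders with control in the middle (880 and 923 genes) exceed each of the 4 orders with control at an end (382 to 464 genes).

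The largest drops shared by both agents were in amino acid metabolism. Ranked by the smaller of the PQ and NAC differences, 14 named genes led the lower side, and 11 of these belong to the lists of ATF4-branch, one-carbon, transporter and amino acid enzyme genes. Over 5 such lists, 78 of 81 genes were tested and 45 were set apart lower, beside 0 set apart higher and 4.28% lower among all tested genes. The median pooled difference of these 45 was -0.96. By list, the lower genes were 10 of 16 ATF4-branch factors and feedback genes, 7 of 12 serine and one-carbon enzymes, 8 of 14 transporters, 6 of 16 asparagine, proline and branched-chain enzymes and 14 of 20 cytosolic aminoacyl-tRNA synthetases. Control replicate 2 was higher than control replicate 1 in 42 of the 45 genes, with a median log2 difference of 0.48. The part of this gap in the result was not tested. Without control replicate 2 the lists held 43 genes set apart lower, and without control replicate 1 they held 51.

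Chac1, an enzyme that breaks down glutathione and is a strong target of ATF4, gave 32.4 and 54.8 CPM in control. It gave 7.18 and 7.79 in PQ and 3.34 and 4.06 in NAC. Every treated library was thus far below the lower control library. The fold was 5.8 in PQ and 11.8 in NAC, and the pooled difference was -3.05 ± 0.18 (adjusted p = 8.6e-09). Trib3, a pseudokinase that feeds back on the ATF4 branch, gave 39.9 and 82.2 CPM in control, 13.7 and 15.4 in PQ, and 7.51 and 9.51 in NAC. Its treated libraries all lay below the lower control library, control replicate 2 was well above control replicate 1, and the pooled difference was -2.45 ± 0.20 (adjusted p = 2.6e-07), or -1.84 without control replicate 2. Atf4 itself gave 335 and 492 CPM in control, 221 and 227 in PQ, and 175 and 188 in NAC (-1.04 ± 0.11, adjusted p = 5.1e-06). Ddit4, a stress-induced brake on mTOR signalling, showed the reverse order of the control libraries, 185 and 165 CPM, with 130 and 108 in PQ and 51.8 and 69.4 in NAC. Its difference was -0.56 ± 0.12 in PQ and -1.53 ± 0.13 in NAC. Sesn2, another stress-induced inhibitor of growth signalling that is also a p53 target, fell by 0.50 in PQ and by 1.36 in NAC. Cebpb, which codes for a partner of ATF4, was the only called gene of this list that was higher (0.59 ± 0.18, adjusted p = 0.041), with control libraries at 10.0 and 15.6 CPM and treated libraries at 14.5 to 24.1. It was not set apart and lost its call under 6 of the 14 alternatives.

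Of the 14 tested carriers that bring amino acids into the cell, 8 were set apart lower and 1 was called higher, and the median of the list was -0.30. Slc7a5, the light chain of the carrier for large neutral amino acids, gave 283 and 498 CPM in control, 95.2 and 87.8 in PQ and 105 and 105 in NAC. PQ and NAC lay close together (PQ minus NAC -0.20, adjusted p = 0.41) and the pooled difference was -1.99 ± 0.14 (adjusted p = 6.3e-08). Slc3a2, the heavy chain of the same carrier, gave 285 and 440 CPM in control, 177 and 184 in PQ and 164 and 193 in NAC, and its pooled difference of -1.02 became -0.67 without control replicate 2. Slc7a1, the carrier of arginine and lysine, gave 145 and 243 CPM in control against 65.6 to 76.9 in the 4 treated libraries. Slc1a4, a carrier of serine, alanine and cysteine, fell further in PQ (-1.29 ± 0.12) than in NAC (-0.78 ± 0.12), and this difference passed the test (adjusted p = 0.0044). Slc38a3, a glutamine carrier, was the only transporter called higher, at 44.7 to 55.7 CPM in control and PQ and at 107 and 122 in NAC, so it was not set apart.

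Of the 12 tested enzymes that make serine, glycine and folate-bound carbon units, 7 were set apart lower. PQ against NAC was called in 2 of these 7, beside 30.6% of all tested genes. Shmt2, the mitochondrial enzyme that turns serine into glycine, gave 293 and 388 CPM in control, 128 and 124 in PQ and 124 and 127 in NAC. The fold was 2.71 in each treatment, with a pooled difference of -1.44 ± 0.10 (adjusted p = 2.9e-08). Mthfd2, the next enzyme of the mitochondrial folate pathway, gave 85.9 and 142 CPM in control and 32.1 to 37.5 in the treated libraries (-1.69 ± 0.14). Psat1, of serine synthesis, gave 480 and 544 CPM in control, 309 and 273 in PQ and 292 and 277 in NAC (-0.83 ± 0.08, adjusted p = 2.5e-06). Aldh1l2, which consumes mitochondrial formyl-folate, was one of those 2: it fell by 0.55 in PQ and by 1.48 in NAC, and the agents differed (adjusted p = 6.7e-06). Without known strand of counting, 14.1% of the exonic bases of Aldh1l2 overlap a gene on the other strand.

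Asns, which makes asparagine, gave 192 and 317 CPM in control, 103 and 92.5 in PQ and 59.8 and 52.8 in NAC. The 3 groups did not overlap, and the fold was 2.6 in PQ and 4.51 in NAC (PQ minus NAC 0.79, adjusted p = 0.0014). Bcat1, a transaminase of branched-chain amino acids, followed the same order at 20.01 and 38.8 CPM in control, 9.37 and 9.31 in PQ and 6.03 and 4.85 in NAC. Aldh18a1, the first enzyme of proline synthesis, gave 176 and 240 CPM in control against 81.1 to 96.6 in PQ and 68.4 to 69.7 in NAC. Pck2, the mitochondrial enzyme that makes phosphoenolpyruvate, gave 52.96 and 82.7 CPM in control, 20.6 and 19.0 in PQ and 28.7 and 25.4 in NAC (-1.55 ± 0.14). Cth, the enzyme that releases cysteine from cystathionine, was low throughout, at 2.53 and 8.00 CPM in control and 0.56 to 1.67 in the treated libraries, and its pooled difference of -2.45 became -1.40, without a call, when control replicate 2 was left out. Ass1, of arginine synthesis, went the other way in PQ alone: 1.72 and 1.56 CPM in control, 7.70 and 9.03 in PQ and 2.41 and 1.49 in NAC.

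**Figure D2:**
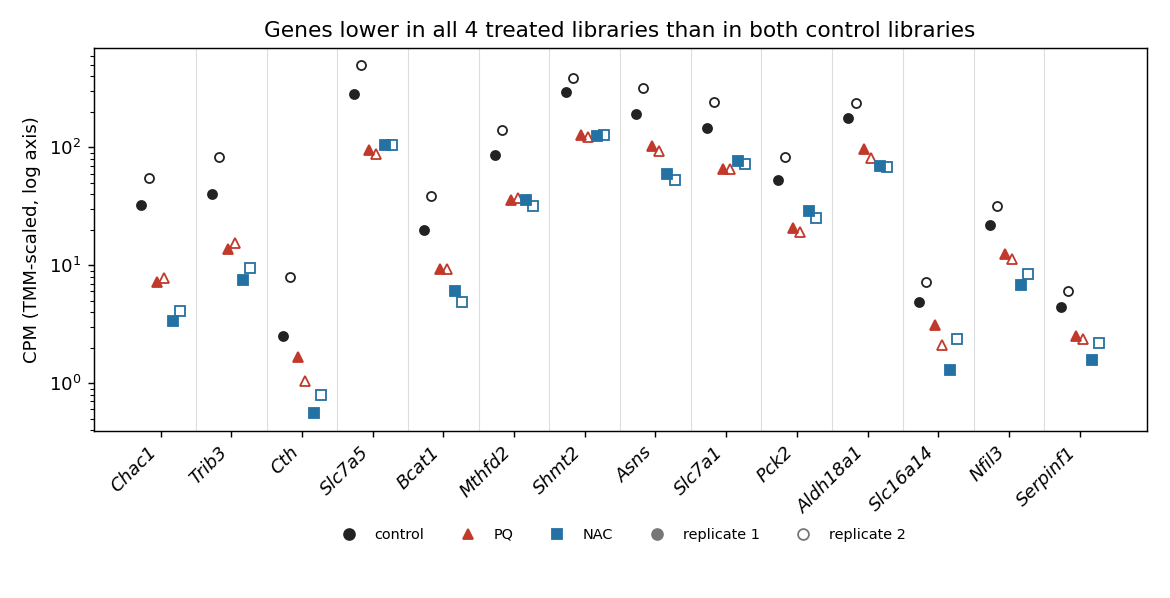
Level of the 14 named genes that lead the lower side (x axis) in each of the 6 libraries, in CPM on a log axis; black circles are control, red triangles PQ and blue squares NAC, with filled symbols for replicate 1 and open symbols for replicate 2. All 4 treated libraries lie below both control libraries for every gene, as the choice of genes required, and control replicate 2 lies above control replicate 1.

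Aminoacyl-tRNA synthetases load amino acids onto their tRNAs. Yars, for tyrosine, gave 150 and 189 CPM in control, 94.6 and 99.6 in PQ and 76.8 and 79.9 in NAC (-0.96 ± 0.09, adjusted p = 1.9e-06). Cars, for cysteine, fell by 0.74 in PQ and by 1.34 in NAC, a difference between the agents that passed the test (adjusted p = 0.0018). Gars, for glycine, gave 295 and 398 CPM in control against 155 to 216 in the treated libraries. Mars1, for methionine, gave 150 and 193 CPM in control against 85.1 to 104 (-0.89 ± 0.10). The other 10 enzymes set apart had pooled differences between -0.95 (Nars) and -0.50 (Vars). Hars, for histidine, was among the 6 that were not: its control libraries gave 104 and 102 CPM and its treated libraries 95.3 to 100 (-0.08 ± 0.08, adjusted p = 0.57).

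The lists hold known targets of ATF4, so their promoters are shown as a description. The table of RefSeq promoters on build GRCm38.p6, which runs from 250 bases before to 50 bases after each gene's start, held a promoter for 33 of the 45 lower genes of the amino acid lists. The letters TGATGNAA, the core of the element bound by C/EBP and ATF factors together, stood on either strand in 12 of these 33 genes (36.4%). The same letters stood in 2.71% of the tested genes with a promoter and in 4.51% of all genes in the table. Over all 434 lower genes with a promoter they stood in 27 (6.22%), and over 464 higher genes in 11 (2.37%). A match is a description of letters, not a measured site. Aars, Asns, Chac1, Gars, Jdp2, Pck2, Pycr1 and Tars were lower in all treated libraries and carried the letters before their start. Of these, Chac1, Asns, Pck2, Gars and Pycr1 are shown as examples. Capitals mark the motif, which appears as its reverse complement where it lies on the other strand, and each line runs 5′ to 3′ along the gene.

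Chac1: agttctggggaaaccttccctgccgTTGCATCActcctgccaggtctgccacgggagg
Asns: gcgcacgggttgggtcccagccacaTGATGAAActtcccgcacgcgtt
Pck2: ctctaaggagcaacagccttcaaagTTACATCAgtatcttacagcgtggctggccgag
Gars: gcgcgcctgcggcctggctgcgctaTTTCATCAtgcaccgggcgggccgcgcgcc
Pycr1: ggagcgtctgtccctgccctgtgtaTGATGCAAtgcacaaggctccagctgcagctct

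These windows lie at chr2:119351024-119351081 (plus strand), chr6:7693210-7693257 (minus), chr14:55540138-55540195 (plus), chr6:55037946-55038000 (plus) and chr11:120643819-120643876 (minus). The first base of the motif stood 193 bases before the start of Chac1, 23 before that of Asns, 103 before those of Pck2 and Pycr1, and 30 before that of Gars. The letters TGACNNNGC, the core of the antioxidant response element, stood in 11 of the same 33 genes (33.3%), against 16.9% of tested genes. The E-box CACGTG stood in 4 (12.1%), against 11.8% of tested genes.

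A second group of lower genes covered hypoxia and glycolysis, with 13 of 32 tested genes set apart lower and 0 higher, beside 4.28% and 4.54% of all tested genes. Here NAC lay furthest from control: the median difference over all 32 was -0.15 in PQ and -0.82 in NAC. The median log2 difference of control replicate 2 from control replicate 1 was -0.13, about the size of the PQ difference. PQ against NAC was called in 27 of the 32, beside 30.6% of all tested genes. It was called in 9 of the 13, beside 38.0% of all genes set apart. Hk2, the hexokinase that starts glycolysis, gave 95.7 and 95.1 CPM in control, 67.6 and 58.2 in PQ and 42.4 and 52.97 in NAC (-0.80 ± 0.10, adjusted p = 2.7e-05). Vegfa, the angiogenic growth factor induced by low oxygen, gave 976 and 965 CPM in control, 791 and 672 in PQ and 442 and 559 in NAC. Ndrg1, a hypoxia-induced gene, gave 387 and 332 CPM in control and 331 and 249 in PQ, so that PQ replicate 1 almost touched control, while NAC gave 139 and 154. P4ha2, a collagen prolyl hydroxylase, gave 39.7 and 36.5 CPM in control, 35.8 and 21.7 in PQ and 7.23 and 12.5 in NAC, and only its NAC difference passed the test (-1.96 ± 0.22, adjusted p = 6.2e-06; PQ -0.41 ± 0.20, adjusted p = 0.17). Aldoc, an aldolase of brain, was the only called gene that was higher, at 71.4 to 79.9 CPM in control and PQ and 162 in both NAC libraries. The count of 13 rose to 20 without control replicate 2 and to 21 without PQ replicate 1.

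**Figure D3:**
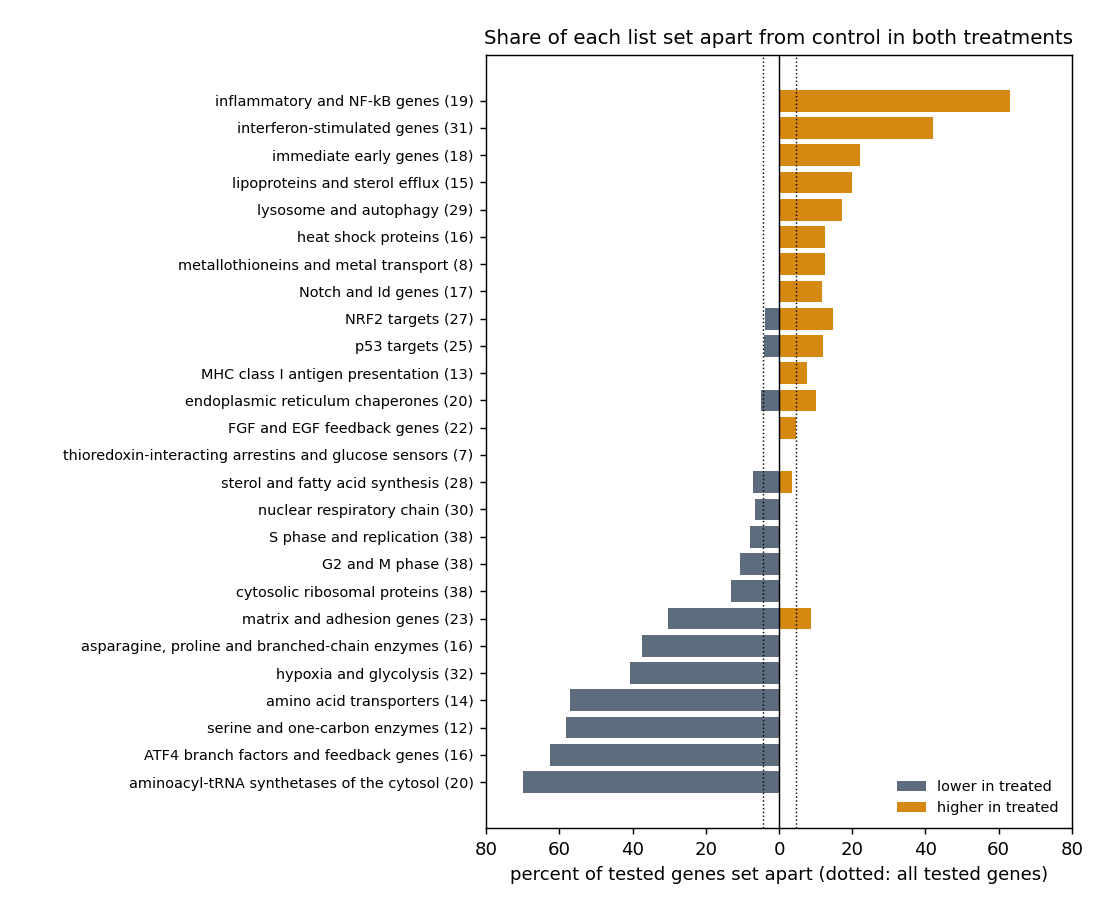
Percent of the tested genes of each list (number tested in brackets) that were set apart lower (grey bars, to the left) or higher (orange bars, to the right) in treated cultures, with dotted lines at the 4.28% and 4.54% of all tested genes. The amino acid and hypoxia lists reach furthest to the left, the inflammatory and interferon lists furthest to the right.

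Other lower genes were fewer. The counts in this paragraph stand beside 4.28% set apart lower and 4.54% set apart higher among all tested genes. Of the matrix and adhesion genes 7 of 23 were set apart lower and 2 higher. PQ against NAC was called in 8 of these set-apart genes, beside 38.0% of all genes set apart. The median difference of the list was -0.10 in PQ and -0.29 in NAC. Fn1, fibronectin, gave 976 and 872 CPM in control, 776 and 675 in PQ and 437 and 501 in NAC, and Sparc, a matrix-binding glycoprotein, gave 984 and 928 in control, 905 and 910 in PQ and 472 and 476 in NAC. Col11a1 and Vcan, a fibrillar collagen and a proteoglycan, were the 2 higher genes: Col11a1 rose more in NAC (0.92 ± 0.10) and Vcan more in PQ (0.84 ± 0.09). Of 38 cytosolic ribosomal protein genes 5 were set apart lower, all of the small subunit. Rps2 gave 1068 and 1028 CPM in control against 776 to 896 in the treated libraries (-0.34 ± 0.08), and Rps14 and Rps3 had differences of -0.34 and -0.31. That count was 1 in the fit to log2(FPKM + 1), and 3, 2 and 3 without control replicate 2, PQ replicate 2 or NAC replicate 2. In the S phase list 3 of 38 genes were set apart lower (Rrm2, Pola2 and E2f1, the last of which lost its call without control replicate 1), and in the G2 and M phase list 4 of 38 (Aurkb, Anln, Kif23 and Hmmr).

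The median differences of the S phase and the G2 and M phase lists were -0.60 and -0.62 in PQ. In NAC they were 0.20 and 0.05, and for the G2 and M phase list the NAC libraries overlapped the control libraries. Mki67, the common marker of dividing cells, gave 1082 and 1055 CPM in control, 520 and 450 in PQ and 1366 and 1190 in NAC. It passed the pooled test (-0.44 ± 0.08, adjusted p = 0.0016) although NAC lay above control. Rrm2, the ribonucleotide reductase subunit that limits nucleotide supply, gave 325 and 316 CPM in control, 212 in both PQ libraries and 277 and 258 in NAC. Anln, a scaffold of the cleavage furrow, was nearly equal in the agents: 353 and 371 CPM in control, 263 and 218 in PQ and 256 and 239 in NAC. The count of 4 in the G2 and M phase list became 12 without control replicate 1 and 13 without NAC replicate 1; in the S phase list it became 6 without control replicate 2.

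Among the remaining genes that led the lower side were Nfil3, a transcriptional repressor of the circadian system, Slc16a14, a member of the monocarboxylate transporter family, and Serpinf1, a secreted neurotrophic serpin. Nfil3 gave 22.0 and 32.0 CPM in control, 12.5 and 11.4 in PQ and 6.77 and 8.52 in NAC (-1.50 ± 0.16, adjusted p = 4.4e-06). Slc16a14 gave 4.85 and 7.27 CPM in control against 1.30 to 3.12 in the treated libraries. Serpinf1 gave 4.45 and 6.03 CPM in control against 1.58 to 2.50, and lost its call without control replicate 2.

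On the higher side the guanylate-binding proteins stood out as a family. It was taken up after several members had been seen among the leading genes. All 11 members in the files were tested and all 11 were set apart higher, 5 on chromosome 3 and 6 on chromosome 5, beside 4.54% of all tested genes. Gbp2 (chr3:142620663-142638008) gave 25.2 and 29.8 CPM in control, 88.5 and 104 in PQ and 121 and 119 in NAC. The treated libraries lay far above both control libraries, the fold was 3.5 in PQ and 4.37 in NAC, and the pooled difference was 1.97 ± 0.11 (adjusted p = 7e-09). Gbp3 gave 27.6 and 30.2 CPM in control, 63.7 and 76.5 in PQ and 75.3 and 77.6 in NAC (1.34 ± 0.11). Gbp6 gave 30.0 and 32.5 CPM in control, 78.1 and 109 in PQ and 90.5 and 86.5 in NAC. Gbp10 gave 13.4 and 22.0 CPM in control, 53.4 and 70.4 in PQ and 61.4 and 54.7 in NAC. Gbp9 gave 110 and 114 CPM in control against 170 to 217 in the treated libraries. The other 6 members had pooled differences between 0.54 (Gbp7) and 1.74 (Gbp2b).

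Some members are near copies that share reads, so their split is uncertain. Summed, Gbp2 and Gbp2b differed by 1.78 in PQ and 2.12 in NAC, and Gbp6 and Gbp10 by 1.66 and 1.58. The agents differed in 4 of the 11 members (Gbp2 and Gbp2b higher in NAC, Gbp4 and Gbp9 higher in PQ).

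The list of interferon-stimulated genes, which includes Gbp2, Gbp3 and Gbp7, held 13 of 31 tested genes set apart higher and 0 lower, so 10 beside those 3. Among all tested genes 4.54% were set apart higher and 4.28% lower. The median difference of the list was 1.00 in PQ and 0.14 in NAC. The median log2 difference of control replicate 2 from control replicate 1 was 0.13, about the size of the NAC difference. PQ against NAC was called in 25 of the 31, beside 30.6% of all tested genes. It was called in 9 of the 13, beside 38.0% of all genes set apart. Rsad2, an antiviral enzyme, gave 18.0 and 21.7 CPM in control, 74.9 and 103 in PQ and 33.2 and 28.9 in NAC, so the 3 groups did not overlap. The fold was 4.48 in PQ and 1.57 in NAC, and PQ against NAC passed the test (1.52, adjusted p = 3.2e-07). Ifit3, which binds foreign RNA, gave 7.78 and 5.20 CPM in control, 23.3 and 35.3 in PQ and 15.5 and 12.3 in NAC; summed with its near copy Ifit3b the difference was 2.10 in PQ and 0.83 in NAC. Nlrc5, the activator of MHC class I genes, gave 2.53 and 3.95 CPM in control, 8.12 and 9.98 in PQ and 4.17 and 4.75 in NAC. It was the only 1 of 13 MHC class I presentation genes set apart, and lost its call without control replicate 1.

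A pair of GAAA tetramers with any 2 bases between them, the core of the interferon-stimulated response element, was searched after the guanylate-binding proteins had been seen. It stood on either strand in 10 of the 12 interferon and guanylate-binding genes set apart higher that had a promoter in the table (83.3%), against 3.62% of tested genes and 3.99% of all genes in it. Only 12 of the 21 genes in this set had a promoter there. The set comes from genes listed as interferon-stimulated and from the guanylate-binding proteins, so its share is a description. No share is given for listed genes that were not set apart. Gbp2, Gbp2b, Gbp3, Gbp5, Gbp7, Ifit3, Rsad2 and Trim30a combined a shared rise with a match before the start. Of these, Gbp2, Gbp2b, Gbp7 and Rsad2 are shown as examples. Cxcl10 is shown beside them as the only 1 of 10 inflammatory genes set apart higher and with a promoter that held the motif. Capitals mark the motif, read as TTTC, any 2 bases and TTTC where it lies on the other strand.

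Gbp2: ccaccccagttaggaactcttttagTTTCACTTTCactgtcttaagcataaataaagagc
Gbp2b: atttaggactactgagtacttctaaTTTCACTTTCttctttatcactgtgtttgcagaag
Gbp7: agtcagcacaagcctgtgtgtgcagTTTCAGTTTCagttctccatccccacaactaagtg
Cxcl10: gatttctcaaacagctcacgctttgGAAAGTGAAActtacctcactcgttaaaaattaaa
Rsad2: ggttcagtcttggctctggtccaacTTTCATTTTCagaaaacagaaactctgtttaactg

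These windows lie at chr3:142620579-142620638, chr3:142594685-142594744 and chr3:142530258-142530317 (all on the plus strand), and at chr5:92349068-92349127 and chr12:26456538-26456597 (both on the minus strand). The motif's first base stood 59, 137 and 53 bases before the starts of Gbp2, Gbp2b and Gbp7, and 213 and 120 bases before those of Cxcl10 and Rsad2. Gbp2 and Gbp2b hold the same 10 letters in capitals. Over all 464 higher genes with a promoter the motif stood in 33 (7.11%), and over 434 lower genes in 15 (3.46%).

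Of the inflammatory and NF-kB list 12 of 19 tested genes were set apart higher and 0 lower, beside 4.54% and 4.28% of all tested genes. Tlr2, a receptor for bacterial lipoproteins, gave 2.32 and 2.18 CPM in control, 7.29 and 10.8 in PQ and 11.0 and 10.3 in NAC. Its pooled difference was 2.12 ± 0.23 (adjusted p = 1e-05), and PQ against NAC did not pass the test (adjusted p = 0.42). Ccl2, a chemokine for monocytes, gave 67.3 and 86.5 CPM in control, 200 and 251 in PQ and 140 and 145 in NAC. Cxcl10, a chemokine for T cells that interferon also induces, gave 71.9 and 75.2 CPM in control, 187 and 220 in PQ and 122 and 123 in NAC. Both chemokines were higher in PQ than in NAC (adjusted p = 0.00036 and 2e-05). Lcn2, an acute-phase protein that binds bacterial siderophores, gave 57.5 and 70.3 CPM in control, 138 and 166 in PQ and 125 and 132 in NAC (1.13 ± 0.10).

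Genes outside the list went the same way. Cxcl5, a chemokine for neutrophils, gave 19.1 and 23.6 CPM in control, 52.0 and 70.5 in PQ and 63.0 and 60.2 in NAC, and its difference was 1.52 in PQ and 1.53 in NAC. Serpina3n, a protease inhibitor of reactive astrocytes, gave 6.87 and 6.86 CPM in control, 19.5 and 18.3 in PQ and 22.99 and 27.0 in NAC. Casp4, the caspase that senses bacterial lipopolysaccharide inside cells, gave 2.12 and 2.70 CPM in control against 7.29 to 9.41 in the treated libraries. Gadd45b, a stress-induced signalling gene, gave 5.76 and 6.34 CPM in control against 14.6 to 19.4. Pla2g7, which inactivates platelet-activating factor, gave 2.02 and 4.47 CPM in control against 8.02 to 12.1, and its pooled difference of 1.57 became 2.25 without control replicate 2.

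**Figure D4:**
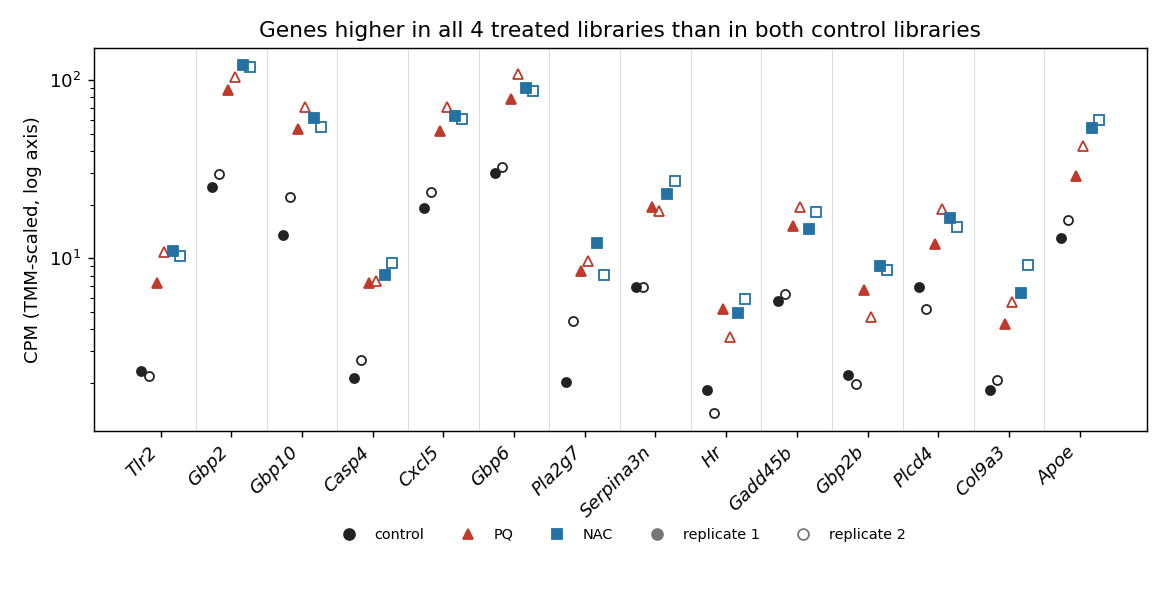
Level of 14 named genes that lead the higher side (x axis) in each of the 6 libraries, in CPM on a log axis, with symbols for control, PQ and NAC and filled or open marks for replicates 1 and 2; Gm2026, listed at 0 in control, is not drawn. All 4 treated libraries lie above both control libraries for every gene, as the choice required; Gbp2 moves from 25.2 and 29.8 to between 88.5 and 121 CPM.

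Markers of immune cells were set beside these groups, with 4.54% of all tested genes set apart higher. The summed level of 20 microglia and blood cell markers was 64.7 and 65.6 CPM in control, 85.8 and 89.0 in PQ and 98.6 and 99.4 in NAC. Of these 20 markers 5 had enough counts to be tested and 2 were set apart higher: Cd14, a co-receptor for lipopolysaccharide (3.84 and 4.78 CPM in control, 5.31 and 7.89 in PQ, 30.5 and 31.4 in NAC) and P2ry12, a purine receptor (3.03 and 3.64, 4.48 and 5.23, 8.99 and 6.04), which lost its call under 5 of the 14 alternatives. The defining markers Aif1, Tmem119, Tyrobp, C1qc and Ptprc were at or near 0 in every library, and Ptprc did not exceed 0.289 CPM. The part of these markers in the inflammatory and interferon counts was not tested. In bulk RNA, fewer cells of a type and less RNA per cell cannot be told apart.

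Apoe, the main lipid-carrying apolipoprotein of the brain, rose with both agents: 12.9 and 16.3 CPM in control, 29.0 and 42.6 in PQ and 54.0 and 59.5 in NAC. The 3 groups did not overlap, and NAC exceeded PQ (PQ minus NAC -0.66, adjusted p = 0.0024). Abca1, which loads lipid onto Apoe, gave 29.5 and 26.1 CPM in control, 51.3 and 60.3 in PQ and 44.9 and 45.2 in NAC. With Pltp, a phospholipid transfer protein (0.57 ± 0.17, adjusted p = 0.038), these were the 3 of 15 lipoprotein and sterol efflux genes set apart; Pltp lost its call under 7 of the 14 alternatives. In the lysosome and autophagy list 5 of 29 genes were set apart higher and 0 lower, 10 with scaling to library size alone and 3 without PQ replicate 2. Both lists stand beside 4.54% set apart higher and 4.28% lower among all tested genes. Ctsd, a lysosomal protease, gave 529 and 477 CPM in control, 851 and 924 in PQ and 545 and 590 in NAC. Map1lc3b and Gabarapl1, which mark autophagosome membranes, differed by 0.45 ± 0.09 and 0.41 ± 0.10; Gabarapl1 lost its call without control replicate 2 or PQ replicate 2.

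Genes of the oxidative and DNA damage responses often differed between the agents: PQ against NAC was called in 21 of 27 tested NRF2 targets and 21 of 25 tested p53 targets, beside 30.6% of all tested genes. Of the 27 NRF2 targets 4 were set apart higher and 1 lower, beside 4.54% and 4.28% of all tested genes, and with scaling to library size alone 7 higher. Mgst1, a membrane-bound glutathione transferase, gave 29.2 and 35.0 CPM in control, 64.9 and 63.6 in PQ and 49.8 and 53.2 in NAC. Sqstm1, the selective autophagy adaptor, gave 265 and 258 CPM in control, 428 and 495 in PQ and 352 and 368 in NAC. Fth1, the ferritin heavy chain, gave 2550 and 2547 CPM in control and 4176 and 4577 in PQ, but only 2718 and 2740 in NAC, and its NAC difference did not pass the test (adjusted p = 0.48). Txn1, thioredoxin, showed the converse, with 173 and 167 CPM in PQ beside 163 and 166 in control, and 267 and 280 in NAC. Tkt, of the pentose phosphate pathway, fell by 0.30 in PQ and by 0.61 in NAC.

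Hmox1 and Cdkn1a, the standard readouts of NRF2 and p53 activity, were not set apart. Hmox1 gave 66.3 and 61.8 CPM in control, 117 and 143 in PQ and 43.4 and 50.1 in NAC. Cdkn1a gave 468 and 473 CPM in control, 1032 and 1084 in PQ and 223 and 255 in NAC, and its pooled difference was 0.10 ± 0.08 (adjusted p = 0.48). Of 25 p53 targets 3 were set apart higher and 1, Sesn2, lower, beside 4.54% and 4.28% of all tested genes. Fas, a death receptor, gave 9.50 and 7.48 CPM in control, 26.2 and 27.2 in PQ and 16.8 and 16.3 in NAC. Eda2r, another receptor of that family, gave 51.1 and 52.99 CPM in control, 127 and 131 in PQ and 63.8 and 66.1 in NAC. The higher count of 3 became 5 without control replicate 2 or without NAC replicate 1, and the lower count of 1 became 3 without control replicate 1. Txnip, which binds thioredoxin, passed the pooled test (-1.27 ± 0.18) on PQ alone: 12.9 and 19.2 CPM in control, 2.29 and 2.09 in PQ and 19.5 and 21.1 in NAC.

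Immediate early genes, which respond within minutes to growth factor and stress signals, held 4 of 18 set apart higher and 0 lower. The shares over all tested genes were 4.54% and 4.28%. Fos gave 10.7 and 9.04 CPM in control, 16.9 and 16.5 in PQ and 20.1 and 27.8 in NAC. Egr2 gave 8.09 and 10.4, then 13.4 and 12.0, then 22.1 and 26.0, and only its NAC difference passed the test (1.38 ± 0.17; PQ 0.46 ± 0.18, adjusted p = 0.09). Zfp36, which destabilises cytokine mRNAs, gave 17.1 and 15.8 CPM in control, 24.4 and 24.5 in PQ and 33.7 and 40.1 in NAC. All 3 were higher in NAC than in PQ.

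Of 20 tested chaperone and degradation genes of the endoplasmic reticulum 2 were set apart higher and 1 lower. Of 16 heat shock protein genes 2 were set apart higher. Over all tested genes 4.54% were set apart higher and 4.28% lower. PQ against NAC was called in 2 of the 20 and in 7 of the 16, beside 30.6% of all tested genes. The median of the heat shock list was 0.27 in PQ and -0.05 in NAC. Hspa5, the chaperone of the endoplasmic reticulum, gave 674 and 654 CPM in control, 896 and 825 in PQ and 864 and 807 in NAC (0.35 ± 0.08, adjusted p = 0.0056). Calr, a calcium-binding chaperone of the same compartment, differed by 0.34 ± 0.08. Hspa8, the constitutive relative of Hspa5 in the cytosol, also differed by 0.34 ± 0.08. Herpud1, which serves degradation at the endoplasmic reticulum and is also an ATF4 target, went down: 33.7 and 42.3 CPM in control, 28.2 and 24.6 in PQ and 22.99 and 19.1 in NAC (-0.69 ± 0.12). Calr and Hspa8 lost their calls without control replicate 2.

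**Figure D5:**
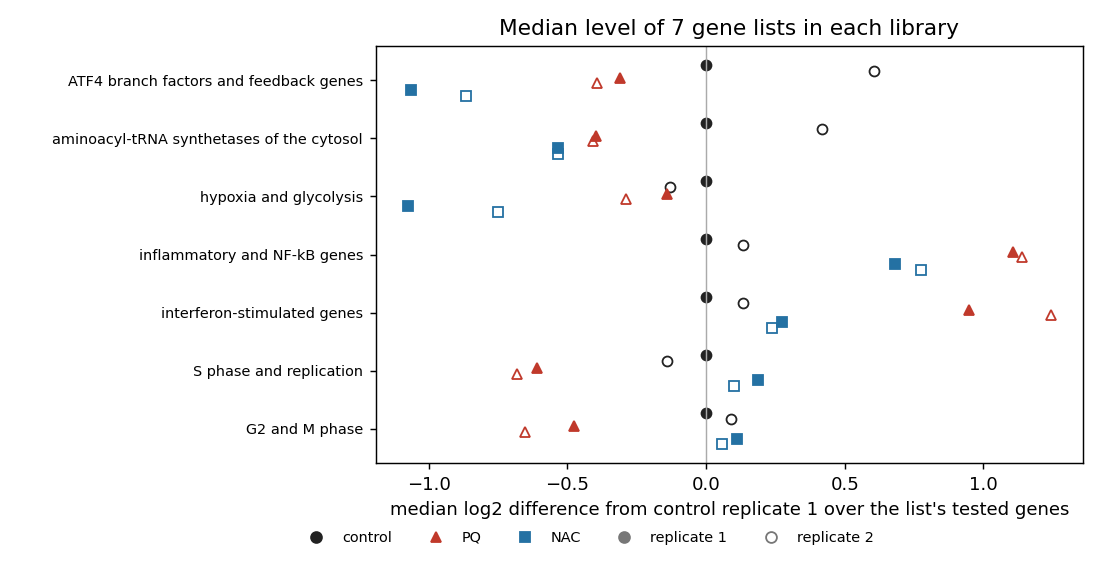
Median log2 difference from control replicate 1 (x axis) over the tested genes of 7 lists (y axis) in each library, with black circles for control, red triangles for PQ and blue squares for NAC, filled for replicate 1 and open for replicate 2. Control replicate 2 lies 0.61 above control replicate 1 for the ATF4-branch list, and the cell cycle lists lie below control in PQ only.

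Markers of neural cell types were checked as groups, beside 4.54% of all tested genes set apart higher and 4.28% lower. Sox2, a transcription factor that maintains neural stem cells, was the only 1 of 17 tested stem cell and radial glia markers set apart, at 352 and 413 CPM in control against 296 to 314 in the treated libraries (-0.34 ± 0.08, adjusted p = 0.01), and lost its call without control replicate 2. Nes, the stem cell intermediate filament, gave 579 and 557 CPM in control, 715 and 719 in PQ and 471 and 466 in NAC, with a pooled difference of 0.03 ± 0.07. Olig2, of the oligodendrocyte lineage, gave 809 and 819 CPM in control and 664 to 859 in the treated libraries (adjusted p = 0.66). Of 13 tested neurogenic and neuronal markers 1, Tubb3, was set apart lower, and 1, Map2, was called higher but not set apart. The median difference of that list was 0.35 in PQ and -0.53 in NAC. Tubb3, a neuronal tubulin, was low, at 2.32 and 4.26 CPM in control and 0.56 to 1.24 in the treated libraries, and lost its call without control replicate 2. Of 10 tested oligodendrocyte lineage markers only Lhfpl3, a marker of oligodendrocyte precursors, was set apart. It gave 9.30 and 8.73 CPM in control, 15.5 and 15.1 in PQ and 60.8 and 67.1 in NAC. Gfap, the astrocyte filament, overlapped between control and PQ (4.57 to 5.96 CPM) and gave 11.0 and 13.8 in NAC. Of 18 tested astrocyte markers 7 were called higher and 1 lower, beside 5.85% and 6.36% of all tested genes. PQ against NAC was called in 15 of the 18, beside 30.6% of all tested genes. The astrocyte markers summed to 1490 and 1580 CPM in control, 1683 and 1725 in PQ and 2198 and 2322 in NAC. Among them Apoe and the glutamate carrier Slc1a2 (0.44 ± 0.09) were set apart higher. The part of these markers in the other counts was not tested.

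Gm2026 on chromosome 2 had the largest fold of the genes named, but its reading is uncertain. It had 0 counts in both control libraries and 19.0, 8.74, 12.4 and 17.8 CPM in the treated libraries. Against 3 counts over the control group, the level that a count of 0 still allows, it was at least 96.0-fold higher. A locus without a gene name showed the mirror image, 18.1 and 18.9 CPM in control and 0 to 1.58 in the treated libraries. The sum of both loci was 18.1 and 18.9 CPM in control and 8.74 to 19.8 in the treated libraries, so the groups then overlapped. Whether the 2 loci share reads was not tested.

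Strand was not stated for the counting, so reads from a gene and from a partner on the other strand cannot be told apart. Among the genes named above, such partners covered 29.8% of the exonic bases of Plcd4 (6.87 and 5.20 CPM in control, 12.1 to 18.8 in the treated libraries), 20.7% of Cebpb, 19.4% of Txnip, 19.3% of Pltp, 17.6% of Lhfpl3 and 17.3% of Sqstm1. Of the other genes that led the higher side, Hr, a transcriptional corepressor, gave 1.82 and 1.35 CPM in control against 3.61 to 5.94, and Col9a3, a collagen chain, gave 1.82 and 2.08 against 4.27 to 9.11.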

How the data were processed

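RSEM expected counts and FPKM values were deposited per gene for each of 6 libraries, per the file headers. Build mm10 and the tools Bowtie2 2.2.5, HISAT2 2.0.4 and RSEM are listed in the submitters' processing notes; parameters and strand are not given in the sources used here. The deposited expected counts (estimated counts, about 21% not whole) were rounded, missing genes were set to 0, and genes were kept by filterByExpr (minimum count 10). edgeR 4.0.16 in R 4.3.3 fitted 3 group means with TMM scaling and 3 residual degrees of freedom, and Benjamini-Hochberg adjustment ran over all 12813 tested genes. Gene symbols came from the RefSeq table for 17199 of 17254 identifiers. On simulated counts the pooled test called 74.6% of genes changed 1.5-fold and 94.0% of those changed 2-fold, and 5.79% of its calls were false. The simulation gave PQ and NAC the same mean in every gene, whereas here 30.6% of tested genes were called between them. It also drew the libraries independently and changed far fewer genes than were called here. These shares therefore need not hold for the real libraries. Named genes were the 15 with the largest shared change in each direction (a group mean of at least 5 CPM; loci without a name not printed), up to 4 set-apart members of each of 34 lists, all called members where 5 or fewer were called in a direction, and a panel of 11 genes; others are named to complete a list or family, after their values were seen. The members and lists were chosen with earlier results of these data known. The alternatives were DESeq2 1.42.0, limma 3.58.1 on log2(FPKM + 1), scaling to library size, 2 group means, other filters, robust fitting, a term for the library numbers in the titles, and leaving out each library.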

Additional observations from a re-analysis of the deposited data

Results flagged for a closer look

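Of the genes that lead either side, 10 differed between PQ and NAC in the same fit, so the shared direction hides unequal sizes. PQ minus NAC on the log2 scale was 1.02 for Chac1 (adjusted p = 0.012), 0.78 for Trib3 (0.046), 0.78 for Bcat1 (0.048), 0.79 for Asns (0.0014), 0.36 for Aldh18a1 (0.044) and 0.65 for Nfil3 (0.025). Each of these 6 lower genes had the lower level in NAC. Among the higher genes the difference was -0.32 for Gbp2 (adjusted p = 0.03), -0.40 for Serpina3n (0.04), -0.65 for Gbp2b (0.031) and -0.66 for Apoe (0.0024), and each had the higher level in NAC. Gbp2 and Gbp2b are near copies.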

How the results depend on the processing

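No result changed direction under the 14 alternatives run, except the balance of higher to lower genes. The share of set-apart genes called between PQ and NAC was compared with all tested genes in the main fit only. Calls were 749 higher and 815 lower in the main fit. With scaling to library size alone they were 981 and 650, and in the fit to log2(FPKM + 1) 741 and 435. With 2 group means in place of 3 the calls fell from 1564 to 23 (16 higher and 7 lower, all set apart). The fit to log2(FPKM + 1) gave 435 genes called lower and 317 set apart lower. Leaving out 1 library at a time gave 921 to 1498 calls (450 to 726 higher, 471 to 772 lower), 382 to 663 genes set apart higher, 357 to 679 set apart lower, and 233 to 666 set-apart genes that differed between PQ and NAC. Of the 1130 genes set apart, 850 were shared with DESeq2, 813 with the FPKM fit, 702 without PQ replicate 2, 640 without control replicate 2 (the fewest of the library leave-outs) and 23 with 2 group means. Of 135 called named genes 18 kept the call under every alternative run, and most others lost it only with 2 group means. The titles number the libraries 8 to 13 and do not say that the numbers mark a shared run; a fit with a block for 8 to 10 against 11 to 13 gave 1212 calls and 909 genes set apart. With 2 libraries a group, a missed call does not show equal levels.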

Other observations

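A few genes in no list passed the pooled test even with a single mean for the treated libraries, which asks PQ and NAC to agree closely. They are named here after their values were seen. Gjc3, a glial connexin, gave 67.7 and 67.2 CPM in control, 118 and 126 in PQ and 139 and 138 in NAC (0.94 ± 0.09). Sulf1, an enzyme that trims sulfate from heparan sulfate chains outside the cell, gave 39.9 and 35.8 CPM in control, 80.9 and 89.6 in PQ and 96.8 and 94.9 in NAC (1.25 ± 0.10). Sox7, a transcription factor known from endothelial development, gave 43.6 and 42.0 CPM in control against 69.5 to 83.8 in the treated libraries. Cacng5, an auxiliary subunit of AMPA receptors, gave 42.5 and 42.1 CPM in control against 70.1 to 77.3. Calr3, a relative of calreticulin, gave 9.90 and 8.52 CPM in control against 20.4 to 22.8.

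In 2 stress genes the control libraries themselves differed widely. Atf3 gave 5.15 and 15.7 CPM in control, 6.35 and 5.23 in PQ and 3.24 and 3.76 in NAC, and lost its call under 5 of the 14 alternatives; its pooled difference of -1.21 became -0.19 without control replicate 2 and -1.80 without control replicate 1. Nupr1 gave 137 and 286 CPM in control, 147 and 150 in PQ and 55.5 and 56.6 in NAC. Both were called lower in the pooled test and neither was set apart.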
